A study of Mus musculus with 14 samples.

Results

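The interferon-induced GTPases are enzymes that cells make when interferon reaches them. The 10 genes described here were chosen by name and matched to the gene symbols of the deposited tables, where all 10 of 53278 listed genes were found. Gbp2, Gbp3, Gbp5, Gbp7 and Gbp9 encode guanylate-binding proteins (GBPs), large GTPases that assemble on the membranes of vacuoles and of bacteria inside the cell. Irgm1, Irgm2 and Igtp (also called Irgm3) encode the regulatory immunity-related GTPases (IRGs), which sit on the cell's own membranes and keep the effector IRGs inactive there. Iigp1 (Irga6) and Ifi47 (Irgd) encode effector IRGs, which load onto the vacuoles of parasites such as Toxoplasma. As background, interferon-gamma acts through its receptor, the kinases JAK1 and JAK2 and DNA elements such as the gamma-activated site (GAS), and it induces IRF1. Type I interferons act through a complex with IRF9 that binds the interferon-stimulated response element (ISRE), and IRF1 binds the ISRE as well. Blimp-1, the product of Prdm1, is a transcriptional repressor whose binding core overlaps some ISRE sequences.

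Bulk RNA-seq was made from group 2 innate lymphoid cells (ILC2s), tissue lymphocytes that release IL-5 and IL-13 when the alarmin IL-33 reaches them. They were sorted from mouse lung as live, lineage-, CD90.2+ and CD3- cells, and about 15000 cells were plated per sample. In the stimulation experiment, 4 unstimulated libraries and 4 IL-33 stimulated libraries (20 ng/mL, 24 h) came from B6 mice. In the Blimp-1 experiment, ILC2s of 3 ControlIL7RaCre mice (Control) and 3 Blimp-1IL7RaCre mice (Blimp-1-deficient), matched for age, were all activated with IL-33 and IL-25 (20 ng/mL each) for 72 h, to which the study's methods add IL-2. The design text speaks of individual mice, while captions of the study's figures that hold these data speak of pooled animals per sorted sample. IL7RaCre deletes in all cells that descend from IL-7 receptor-expressing progenitors, T, B and NK cells included, so the loss of Blimp-1 was not limited to ILC2s in these mice. The labels describe the unstimulated cells as cultured, while the study also calls them ex vivo. If they were not cultured, IL-33 and 24 h of culture cannot be told apart.

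The stimulation libraries were 10470125 to 32849428 counts deep. Depth in the Blimp-1 experiment was 60715362 to 76448945 counts in every library but Control 2, which held 13570188. In Control 2, 76.8% of counts fell on 7 loci rich in ribosomal RNA sequence, which left 3150795 counts for all other genes, and its collagen genes stood apart (Col1a1 at 2171 CPM, against 48.1 and 124 in the other Controls). IL-33 stimulated 3 was the shallowest library of its experiment. The mice are described as female, yet all 6 Blimp-1 libraries held 0 to 8 counts of Xist, the RNA of the inactive X chromosome. The same 6 libraries held counts of the Y-linked Ddx3y, Eif2s3y, Kdm5d and Uty, at 88 to 173 per gene in Control 2 and 1417 to 5486 in the others. Both libraries numbered 4 of the stimulation experiment held 1 or 2 counts of Xist and at most 10 of any of these Y-linked genes, while the other 6 held 3175 to 26134 counts of Xist. Of these, IL-33 stimulated 3 had up to 83 counts of a Y-linked gene. Results are therefore given also without IL-33 stimulated 3, IL-33 stimulated 4, both libraries numbered 4, or Control 2. IL-33 stimulated 4 was also the lowest stimulated library for all 10 members. Values without it therefore raise the members' fold changes by construction and are a description only. Prdm1 checked the genotype labels: it stood at 75.2, 92.8 and 74.0 CPM (counts scaled to the normalized library total) in Control and at 14.6, 11.5 and 11.4 in Blimp-1-deficient ILC2s. The 15 ILC2 markers summed to no less than 7860 CPM in any library. After IL-33, 3 of the 15 rose (Il13, Il5 and Areg) and 11 fell (Il17rb and Thy1 the most), where 16.2% of all genes rose and 16.1% fell. In Blimp-1 deficiency 0 of 15 were called with all 6 libraries. Without Control 2, 4 were called higher and 4 lower, where 8.25% and 5.72% of all genes were. The 12 T cell markers summed to 60.5 to 258 CPM over all libraries.

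In GRCm38, the genome build of the counts, 4 of the GBP genes lie in a cluster on chromosome 3, in the order Gbp5, Gbp7, Gbp3 and Gbp2 with Gbp2b between the last of these and Gbp3, between positions 142493978 and 142638008. Gbp9 lies in the other GBP cluster, on chromosome 5 (105077630 to 105139539), with Gbp8, Gbp4, Gbp10, Gbp6 and Gbp11. Irgm1 (48861968 to 48871683), Ifi47 (49076587 to 49096974), Igtp (58199556 to 58207591) and Irgm2 (58199618 to 58222782) lie on chromosome 11. All 10 are annotated as protein-coding. Some reads of neighbours cannot be assigned with certainty. In the GENCODE annotation, 11.35% of the exon bases of Gbp7 also belong to Gm43802, and Igtp and Irgm2 share 8.01% and 4.39% of theirs with each other. Ifi47 shares 4.49% with Olfr56 on its own strand and 4.29% with Gm12188 on the other strand, and the strand setting of the counting is not given in the sources used here. For the other members, at most 3.61% of stretches of 75 bases, the read length, occurred in another gene.

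The promoters show what the members share in sequence. RefSeq promoters of GRCm38.p6, from 250 bases before to 50 bases after the start, were at hand for 8 members as 9 promoters, since Gbp3 has a pair of starts. An ISRE motif (GAAA, any 2 bases, then GAAA again) was searched on both strands and was present in 7 of the 9 promoters, against 3.44% of all 32851 promoters of that length. Each of Gbp2, Gbp3, Gbp5, Gbp7, Irgm1, Irgm2 and Igtp had a promoter with a match, and Ifi47 had none. The windows of 30 bases around the match nearest the start are shown in the direction of the gene, with motif matches in capitals, because they hold the motif that most of these members share. Where the capitals begin with TTTC, the motif is read on the other strand. In Irgm2 and Igtp the first run of capitals is a GAS.
Gbp2: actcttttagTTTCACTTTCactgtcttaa
Gbp3: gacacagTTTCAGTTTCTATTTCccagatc
Gbp5: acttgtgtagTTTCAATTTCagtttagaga
Gbp7: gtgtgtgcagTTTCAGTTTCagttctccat
Irgm1: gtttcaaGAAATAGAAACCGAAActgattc
Irgm2: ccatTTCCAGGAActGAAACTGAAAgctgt
Igtp: ccatTTCTAGGAActGAAACTGAAAgctgt
The windows lie at chr3:142620594-142620623 (Gbp2), chr3:142559992-142560021 (Gbp3), chr3:142496759-142496788 (Gbp5), chr3:142530273-142530302 (Gbp7), chr11:48871428-48871457 on the minus strand (Irgm1), chr11:58214898-58214927 (Irgm2) and chr11:58199507-58199536 (Igtp). In Gbp3 and Irgm1 a pair of ISRE matches overlap each other.

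The GAS motif TTCNNNGAA was present in 4 of the 9 promoters (Gbp5, Gbp7, Irgm2 and Igtp), against 8.3% of all promoters. In Irgm2 and Igtp the GAS match began 75 and 45 bases before the start and the ISRE match began 64 and 34 bases before it, so that in both promoters the ISRE followed the GAS at the same spacing. The same order of both motifs was found in the promoters of the related GTPases Tgtp1 and Tgtp2. The Blimp-1 core GAAAGT was present in 2 of the 9 promoters (Gbp2 and Gbp7), against 14.3% of all promoters. In Gbp2 it lay inside the ISRE match, and in Gbp7 it shared bases with a GAS match. The 250 bases before the start are shown for Gbp7, which held all 3 motifs, for Igtp, which held the GAS and the ISRE side by side, and for Ifi47, which held none, with matches in capitals.
Gbp7: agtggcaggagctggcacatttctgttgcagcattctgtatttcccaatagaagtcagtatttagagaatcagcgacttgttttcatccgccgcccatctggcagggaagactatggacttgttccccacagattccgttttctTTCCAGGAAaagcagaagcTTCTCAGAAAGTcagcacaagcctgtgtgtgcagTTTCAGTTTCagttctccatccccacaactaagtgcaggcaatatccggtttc
Igtp: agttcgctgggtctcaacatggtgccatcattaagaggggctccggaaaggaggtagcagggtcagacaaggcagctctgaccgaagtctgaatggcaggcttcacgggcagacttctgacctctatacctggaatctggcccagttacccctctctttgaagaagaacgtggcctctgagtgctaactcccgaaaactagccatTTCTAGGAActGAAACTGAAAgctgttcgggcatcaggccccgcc
Ifi47: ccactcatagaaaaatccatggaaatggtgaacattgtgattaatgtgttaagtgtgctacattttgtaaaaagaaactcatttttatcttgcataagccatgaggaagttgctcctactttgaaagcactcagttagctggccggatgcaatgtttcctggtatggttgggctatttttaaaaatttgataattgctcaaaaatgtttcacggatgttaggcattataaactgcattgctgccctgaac
These stretches are chr3:142530086-142530335, chr11:58199306-58199555 and chr11:49076337-49076586, all on the plus strand. A match describes the letters only and shows no binding.

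Levels were compared between genes per length, in the deposited TPM, which divide counts by gene length and library total. Igtp, Ifi47 and Gbp2 led in most libraries: over the 14 libraries, Igtp was first in 7, Ifi47 in 5 and Gbp2 in 2. Gbp5 was last in 6, Iigp1 in 4, Gbp3 in 3 and Gbp9 in 1. In unstimulated ILC2s Ifi47 stood at 259, 132, 187 and 213 TPM (198 ± 52.7, mean ± SD, n = 4) and was above Igtp (156 ± 76.0 TPM) in 4 of 4 libraries. Irgm1 (70.5 ± 27.9 TPM) was above Gbp7 (63.2 ± 10.1 TPM) in only 2 of 4, and Iigp1 (11.6 ± 8.26 TPM) above Gbp3 (10.7 ± 4.27 TPM) in 1 of 4, so these neighbours were not separated. Gbp9 (27.9 ± 6.06 TPM) kept place 7 in all 4, and Gbp5 was lowest at 7.60 ± 2.81 TPM.

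The order differed in the stimulated libraries. Iigp1 stood at 165, 118, 143 and 9.35 TPM and held place 4 by its mean (109 ± 69.0 TPM), though it was above Irgm1 in only 2 of 4 libraries. Gbp2 (325 ± 185 TPM) and Igtp (299 ± 154 TPM) led, each above the other in 2 of 4 libraries. Gbp9 was lowest at 20.6 ± 10.7 TPM, next to Gbp3 at 21.0 ± 10.1 TPM. The plot of TPM by library shows IL-33 stimulated 4 below the other stimulated libraries for all 10 genes, with Iigp1 at 9.35 TPM, close to Gbp9, Gbp3 and Gbp5.

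In the Blimp-1 experiment Igtp led in all 3 Blimp-1-deficient libraries, at 203, 132 and 153 TPM, and Gbp2 (156, 75.6 and 75.8 TPM) was above Ifi47 (119, 73.5 and 87.7 TPM) in 2 of 3. In Control, Igtp (120.1, 1.68 and 88.2 TPM) was above Ifi47 (82.2, 2.07 and 75.6 TPM) in 2 of 3. Iigp1 was the lowest in Controls 1 and 3 at 4.43 and 2.71 TPM, and in Control 2 it stood at 0.127 TPM, above Gbp5 at 0.052 TPM. The low TPM of Control 2 go with the 93.9% of its TPM that fell on the 7 ribosomal loci. Summed over the 10 genes, the TPM were 404 to 987 in unstimulated, 287 to 1718 in IL-33 stimulated, 299 to 356 in Control without Control 2 (6.9 TPM) and 443 to 755 in Blimp-1-deficient libraries. The tables were normalized separately, so levels of the 2 experiments stand side by side without a test.

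**Figure D1:**
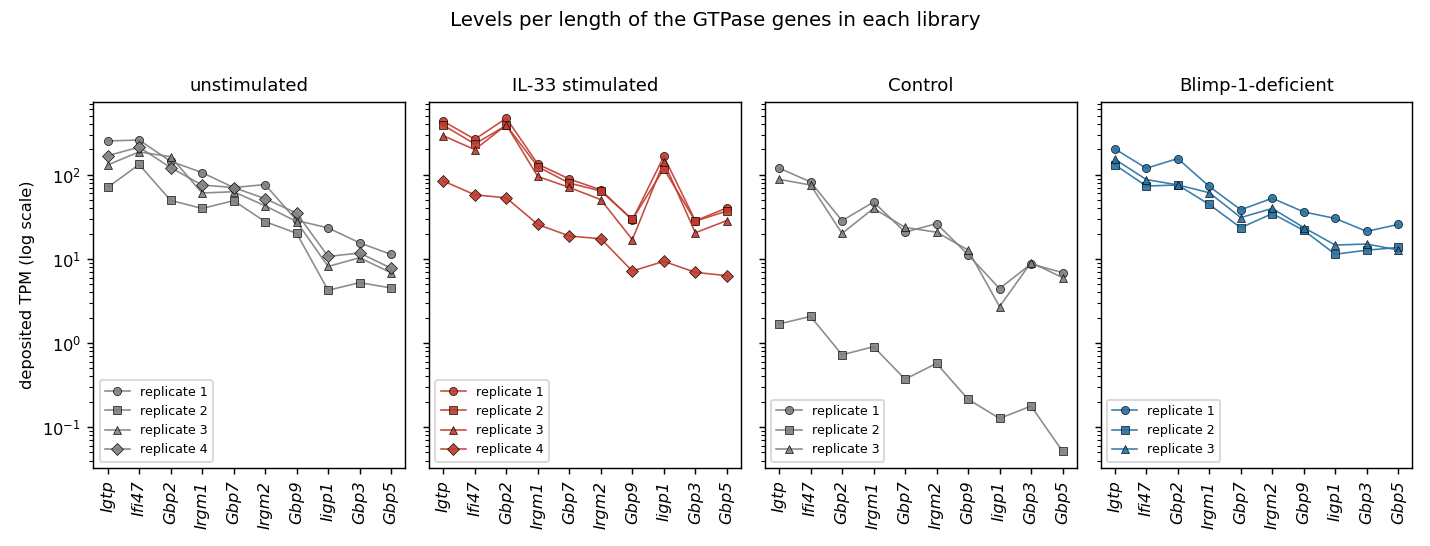
Deposited TPM (log scale) of the 10 GTPase genes, in one order, with a line for each library and a panel for each group. Igtp and Ifi47 lie near the top and Gbp3 and Gbp5 near the bottom in all panels, Gbp2 is lower in Control than in the other panels, Iigp1 stands out in 3 of the 4 IL-33 stimulated libraries, and Control 2 lies below all other libraries.

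The first comparison asked how IL-33 changed ILC2s. With all 8 libraries, Iigp1 and Gbp5 were called higher after IL-33, and the other 8 members did not pass the test in either direction. The quasi-likelihood test of edgeR, with p adjusted over 15466 genes by Benjamini and Hochberg, called 2 of 10 members higher and 0 lower, where 16.2% of all genes tested were called higher and 16.1% lower. Of the members, 9 of 10 had a fold change above 0 and 5 had an unadjusted p under 0.05, as had 43.9% of all genes. With limma on log2(TPM + 1), neither Iigp1 (adjusted p = 0.0512) nor Gbp5 (0.0651) passed. With the replicate number as a block edgeR called 0 members, where it called 9.79% of all genes higher. It also called 0 without unstimulated 3, where 11.8% of all genes were called higher. The members' median log2 fold change was 0.98, against 0.06 over all genes. In bulk RNA, fewer cells that express a gene and less RNA per cell cannot be told apart.

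Iigp1, the effector IRG, lies apart from the other members (chromosome 18, 60376027 to 60392634 in GRCm38). It stood at 22.2, 3.78, 7.22 and 9.39 CPM in unstimulated and at 178, 129, 170.2 and 10.9 CPM in stimulated libraries. All stimulated libraries but the fourth were above the highest unstimulated one, and the fourth lay within the unstimulated range. The log2 fold change was 3.52 (SE 0.88, adjusted p = 0.0168 by edgeR), and 3.90 (SE 0.56, adjusted p = 0.00315) without IL-33 stimulated 4. Gbp5, known for promoting assembly of the NLRP3 inflammasome, stood at 22.8, 8.56, 12.9 and 14.5 CPM in unstimulated and at 92.5, 86.7, 72.4 and 15.7 CPM in stimulated libraries. Its groups overlapped only through the fourth stimulated library. The log2 fold change was 2.19 (SE 0.54, adjusted p = 0.0163 by edgeR), and 2.51 (SE 0.31, adjusted p = 0.00169) without that library.

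Gbp2, which coats parasite vacuoles, stood at 111, 35.7, 118 and 86.2 CPM in unstimulated and at 408, 343, 376 and 50.1 CPM in stimulated libraries. Here 3 stimulated libraries were far above the unstimulated range and the fourth was inside it. The log2 fold change of 1.75 (SE 0.63) missed the threshold with all libraries (edgeR adjusted p = 0.0664), and without IL-33 stimulated 4 the difference was 4.29-fold (adjusted p = 0.00723). Gbp3 stood at 15.4, 4.87, 9.60 and 10.8 CPM in unstimulated and at 31.9, 32.4, 25.5 and 8.46 CPM in stimulated libraries, with a log2 fold change of 1.27 (SE 0.47, edgeR adjusted p = 0.0751). Igtp, a regulatory IRG of the endoplasmic reticulum, stood at 155, 40.8, 75.4 and 95.8 CPM in unstimulated and at 301, 276, 224 and 63.9 CPM in stimulated libraries, with a log2 fold change of 1.24 (SE 0.53, edgeR adjusted p = 0.111). Both genes showed the same picture, with 3 stimulated libraries above and the fourth among or below the unstimulated ones. Without that library their log2 fold changes were 1.56 for Gbp3 (adjusted p = 0.0189) and 1.54 for Igtp (adjusted p = 0.0309).

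The other members moved less. Gbp7, which takes part in assembly of the phagocyte oxidase, stood at 120.4, 78.9, 100.4 and 111 CPM in unstimulated and at 172, 158, 152 and 39.4 CPM in stimulated libraries. Its log2 fold change was 0.34 (SE 0.40, edgeR adjusted p = 0.537), and 0.64 (SE 0.15, adjusted p = 0.0187) without IL-33 stimulated 4, which was below all other libraries. Irgm1, a regulatory IRG with a part in autophagy, stood at 187, 66.0, 101 and 123 CPM in unstimulated and at 268, 255, 212 and 55.8 CPM in stimulated libraries, and its log2 fold change was 0.73 (SE 0.49, edgeR adjusted p = 0.278). Irgm2, Ifi47 and Gbp9 overlapped between groups with or without that library. Their log2 fold changes were 0.30 (SE 0.44) for Irgm2, 0.24 (SE 0.42) for Ifi47 and -0.12 (SE 0.39) for Gbp9, with edgeR adjusted p from 0.626 to 0.827.

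The library that was low differed from the library that was shallow. IL-33 stimulated 4 had the lowest CPM of the 4 stimulated libraries for 10 of 10 members, where it was the lowest for 16.1% of all genes with counts in these libraries. Its CPM were 6.87% (Iigp1) to 30.1% (Irgm2) of the mean of the other 3 stimulated libraries, with a median of 24.2%. It lay below the other 3 past Dixon's critical value on the log2 CPM scale for 7 of 10 members, where it did for 0.319% of all genes. On the CPM scale it did so for 1 of 10, and the log scale was chosen after the values were seen. As it was the lowest for all members, leaving it out raises their fold changes by construction, and the counts without it are a description. Without it, 6 of 10 members were called higher (Gbp2, Gbp3, Gbp5, Gbp7, Igtp and Iigp1), where 12.4% of all genes were, and 7 of 10 had all stimulated libraries above all unstimulated ones, where 18.1% of all genes had. With it, 0 of 10 members were separate in this way, where 17.0% of all genes were. Without both libraries numbered 4, which lacked Xist, 4 of 10 were called higher (Gbp2, Gbp5, Gbp7 and Iigp1), where 8.74% of all genes were. Without IL-33 stimulated 3, the shallow library, 4 of 10 were called higher (Gbp2, Gbp3, Gbp5 and Iigp1), where 27.5% of all genes were. In that setting DESeq2 called 2 (23.1% of all genes), edgeR with library size alone 2 (19.6%) and limma 0 (15.2%). Among the unstimulated libraries the second had the lowest CPM for 10 of 10 members. Without the third unstimulated library 0 members were called, where 11.8% of all genes were called higher, and without the fourth only Gbp5 was (adjusted p = 0.0463 by edgeR), where 15.9% of all genes were.

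**Figure D2:**
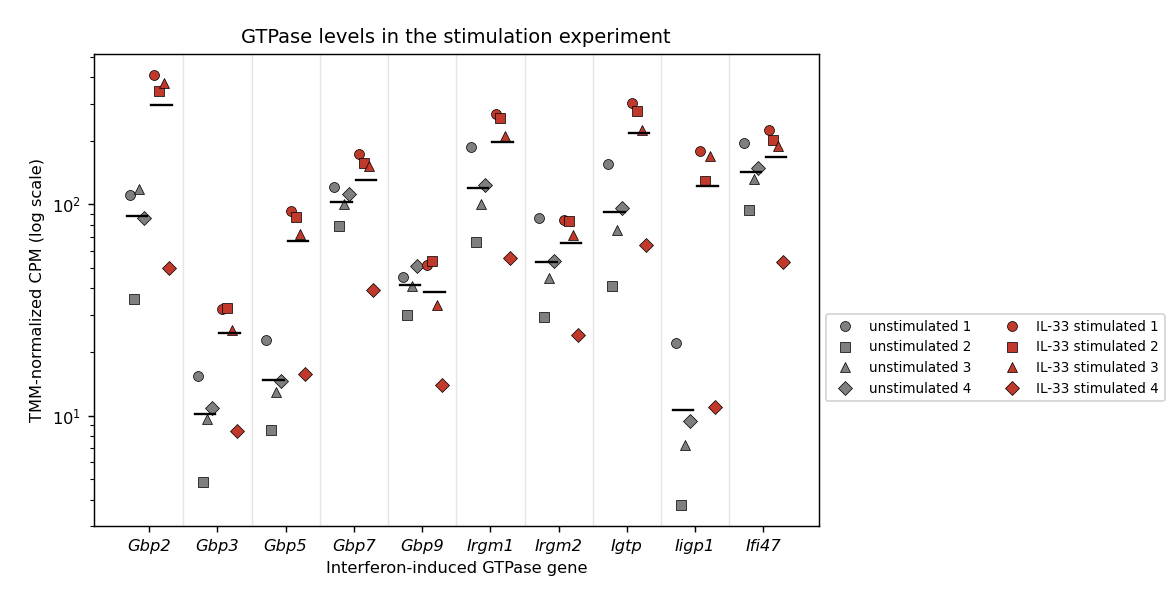
TMM-normalized CPM (log scale) of the 10 GTPase genes in the 4 unstimulated (grey) and 4 IL-33 stimulated (red) libraries, with a marker shape for each replicate number and a bar at the group mean. For Gbp2, Gbp5 and Iigp1, stimulated libraries 1 to 3 lie above all unstimulated ones, while stimulated 4 (red diamond) lies within the unstimulated range for 5 of the 10 genes and below it for the other 5.

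The pathway around the GTPases was read from gene lists. Of the ligands, Ifng alone of 16 interferon genes passed the filter on low counts. Ifng stood at 0.972, 0.172, 0.425 and 0.567 CPM in unstimulated and at 5.19, 11.7, 6.30 and 1.24 CPM in stimulated libraries, so that all stimulated libraries were higher and the fourth was the lowest of them. It rose by a log2 fold change of 3.51 (SE 0.76, edgeR adjusted p = 0.00924). Of 16 ligand genes 10 had no count in any library of the stimulation experiment, and the type I gene Ifnb1 had at most 13 counts, in IL-33 stimulated 3. Of 10 receptor and JAK-STAT genes tested, Jak2 rose (log2 fold change 1.54, SE 0.10, edgeR adjusted p = 3.06e-05), and Ifngr1 and Il10rb fell, where 16.2% of all genes rose and 16.1% fell. With library size alone 4 were called lower and with limma on log2(TPM + 1) 5, where 3691 of 15466 and 4555 of 15171 genes were lower. Ifngr1, which binds interferon-gamma, fell by 1.66 on the log2 scale (SE 0.15, edgeR adjusted p = 0.000159), from 537, 362, 436 and 404 CPM to 159, 143, 109 and 139 CPM.

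Of 10 interferon-linked transcription factors tested, Irf4 and Irf5 rose and 0 fell by edgeR, where 16.2% of all genes rose and 16.1% fell. With library size alone, or with limma, 1 was called lower. Irf4 had a log2 fold change of 2.42 (SE 0.27, edgeR adjusted p = 0.000401) and Irf5 one of 0.91 (SE 0.15, edgeR adjusted p = 0.00284). Irf1 stood at 171, 80.9, 126 and 139 CPM in unstimulated and at 275, 239, 144 and 73.2 CPM in stimulated libraries, and it did not pass the test. Of 10 feedback inhibitors edgeR called 0 with all libraries, and 0 had an unadjusted p under 0.05. DESeq2 called Isg15 higher (adjusted p = 0.0463), where it called 19.4% of all genes higher. With library size alone edgeR called 2 lower, and limma on log2(TPM + 1) called 5 lower. In those fits 3691 of 15466 and 4555 of 15171 genes were lower. Without IL-33 stimulated 4 edgeR called Isg15 and Usp18 higher, where 12.4% of all genes were. Without IL-33 stimulated 3 it called 2 higher and 1 lower, where 27.5% of all genes were higher and 4666 of 15733 were lower. Of 14 other interferon-inducible GTPases tested, 3 rose and 0 fell by edgeR (by DESeq2 6 of 19 rose and Gbp8 fell), where 16.2% of all genes rose: Gm4951 (log2 fold change 3.19, SE 0.88, edgeR adjusted p = 0.0258), Gbp10 (2.53, SE 0.70, 0.0266) and Gm4841 (2.40, SE 0.51, 0.00844). Without IL-33 stimulated 4, 7 of 16 tested were called higher, where 12.4% of all genes were, and Gbp8 was called lower.

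In IL-33 stimulated 4 some pathway genes were low and others were not. As shares of the mean of the other 3 stimulated libraries, it held 16.0% of their Ifng, 17.7% of their Irf7, 33.4% of their Irf1 and 22.6% of their Gbp4. It held 135% of their Il5, 139.9% of their Il13, 104% of their Jak2, 102% of their Ifngr1, 128% of their Socs1 and 118% of their Cish. Irf9 and Nlrc5 lay between, at 51.5% and 52.1%. Il5 stood at 16289, 16819, 14219 and 21258 CPM in the stimulated libraries and at 424 to 689.6 CPM in the unstimulated ones, so the fourth library had the IL-33 response in this cytokine. Of 12 T cell markers edgeR called 7 lower and 0 higher, where 16.1% of all genes were lower and 16.2% higher. The same shares apply to the other marker lists here. The summed level of the T cell markers was 224 to 258 CPM in unstimulated and 64.6 to 93.5 CPM in stimulated libraries. Summed myeloid markers were at 91.9 to 208 CPM and at 47.1 to 132 CPM, and summed ILC1 and NK cell markers at 73.3 to 138 CPM and at 66.3 to 81.9 CPM. Of 8 ILC1 and NK cell markers tested 2 fell, Gzmb and Klrk1, and 0 rose. Summed mast cell and basophil markers were at 305 to 371 CPM in unstimulated and at 130.02 to 185 CPM in stimulated libraries, without overlap. Both genes of that list that were tested fell, Kit from 298 to 356 CPM to 129 to 185 CPM and Cpa3 from 6.68 to 12.8 CPM to at most 2 counts. Summed endothelial, epithelial and stromal markers were at 464 to 731 CPM and at 260.2 to 479 CPM. Of 10 tested 3 fell, led by Epcam (log2 fold change -4.50, SE 0.20, edgeR adjusted p = 6.6e-06), and Pecam1 rose (0.99, SE 0.17, 0.0031). No T cell, ILC1, NK or myeloid marker was at 0 in all libraries, and the part of these cell types in the GTPase levels was not tested.

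The second comparison asked what loss of Blimp-1 changed in activated ILC2s. All 10 members had a higher fitted level in Blimp-1-deficient than in Control ILC2s, and how many passed a test differed with Control 2 and with the tool. With all 6 libraries edgeR called 0 of 10 members, where 0.450% of 17335 genes were called higher and 0.306% lower. Of the members, 8 had an unadjusted p under 0.05, as had 11.9% of all genes, and DESeq2 called 6 of 10, where it called 3.22% of all genes higher. Their median log2 fold change was 0.87, against -0.02 over all genes. Without Control 2, edgeR called 6 of 10 higher and 0 lower (Gbp2, Gbp3, Gbp5, Gbp9, Irgm2 and Iigp1), where 8.25% of 17968 genes were called higher and 5.72% lower, and the median was 0.79 against 0.01. In 7 of 10 members all Blimp-1-deficient libraries were above all Controls, with or without Control 2, where 11.8% of all genes were with it and 24.4% without it.

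Among the GBPs, Gbp2 stood at 19.1, 16.8 and 12.9 CPM in Control and at 91.6, 48.9 and 48.8 CPM in Blimp-1-deficient libraries. The groups were well apart. The log2 fold change was 1.96 (SE 0.30, edgeR adjusted p = 0.0541) with all libraries and 1.99 (SE 0.33, adjusted p = 0.0103) without Control 2. Gbp9 stood at 15.5, 10.2 and 16.9 CPM in Control and at 43.7, 29.0 and 31.2 CPM in Blimp-1-deficient libraries, again without overlap. Its log2 fold change was 1.25 (SE 0.23, edgeR adjusted p = 0.0812), and 1.11 (SE 0.18, adjusted p = 0.00968) without Control 2.

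Gbp5 stood at 12.1, 3.17 and 10.2 CPM in Control and at 39.8, 23.3 and 21.7 CPM in Blimp-1-deficient libraries. Control 2, with 13 counts, was the lowest of all. The log2 fold change was 1.63 (SE 0.45, edgeR adjusted p = 0.209) with all libraries and 1.35 (SE 0.27, adjusted p = 0.0204) without Control 2. Gbp3 stood at 7.58, 5.36 and 7.56 CPM in Control and at 16.2, 10.7 and 12.6 CPM in Blimp-1-deficient libraries, with a log2 fold change of 0.91 (SE 0.21, edgeR adjusted p = 0.147) and of 0.81 (SE 0.18, adjusted p = 0.0268) without Control 2. Gbp7 stood at 31.1, 19.2 and 34.0 CPM in Control and at 50.3, 33.9 and 44.6 CPM in Blimp-1-deficient libraries. Its groups overlapped, and it passed in neither fit (log2 fold change 0.58, SE 0.24, edgeR adjusted p = 0.408 with all libraries, and 0.124 without Control 2).

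Among the IRGs, the effector Iigp1 had the largest fitted fold change of the 10. Iigp1 stood at 3.69, 3.65 and 2.17 CPM in Control and at 22.0, 9.12 and 11.7 CPM in Blimp-1-deficient libraries, a log2 fold change of 2.21 (SE 0.41, edgeR adjusted p = 0.0796). Without Control 2 it was 2.30 (SE 0.43, adjusted p = 0.0155). The other effector, Ifi47, stood at 54.2, 47.3 and 47.8 CPM in Control and at 69.0, 46.7 and 55.6 CPM in Blimp-1-deficient libraries. These groups overlapped, and its log2 fold change of 0.20 (SE 0.16, edgeR adjusted p = 0.703) was the smallest of the 10.

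Of the regulatory IRGs, Irgm2 stood at 25.8, 19.5 and 19.6 CPM in Control and at 45.3, 32.8 and 37.6 CPM in Blimp-1-deficient libraries. Its log2 fold change was 0.82 (SE 0.17, edgeR adjusted p = 0.113), and 0.77 (SE 0.17, adjusted p = 0.0257) without Control 2. Igtp stood at 64.7, 31.4 and 45.6 CPM in Control and at 95.9, 68.5 and 79.3 CPM in Blimp-1-deficient libraries, which were separate by a narrow margin. Its log2 fold change was 0.76 (SE 0.26, edgeR adjusted p = 0.323), and 0.57 (adjusted p = 0.0839) without Control 2. Irgm1 stood at 73.4, 48.5 and 59.2 CPM in Control and at 98.5, 66.2 and 91.1 CPM in Blimp-1-deficient libraries, with overlap and a log2 fold change of 0.49 (SE 0.20, edgeR adjusted p = 0.419). Blimp-1-deficient 1 had the highest CPM of its group for 10 of 10 members. Without both Control 2 and that library, 6 of 10 members were called higher, where 6.32% of all genes were. Without Control 2 and Control 3 only 1 was (4.39% of all genes), and without Control 2 and Control 1 only 2 were (3.20% of all genes). Those fits rest on a single Control, which is assumed to vary like the Blimp-1-deficient libraries.

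**Figure D3:**
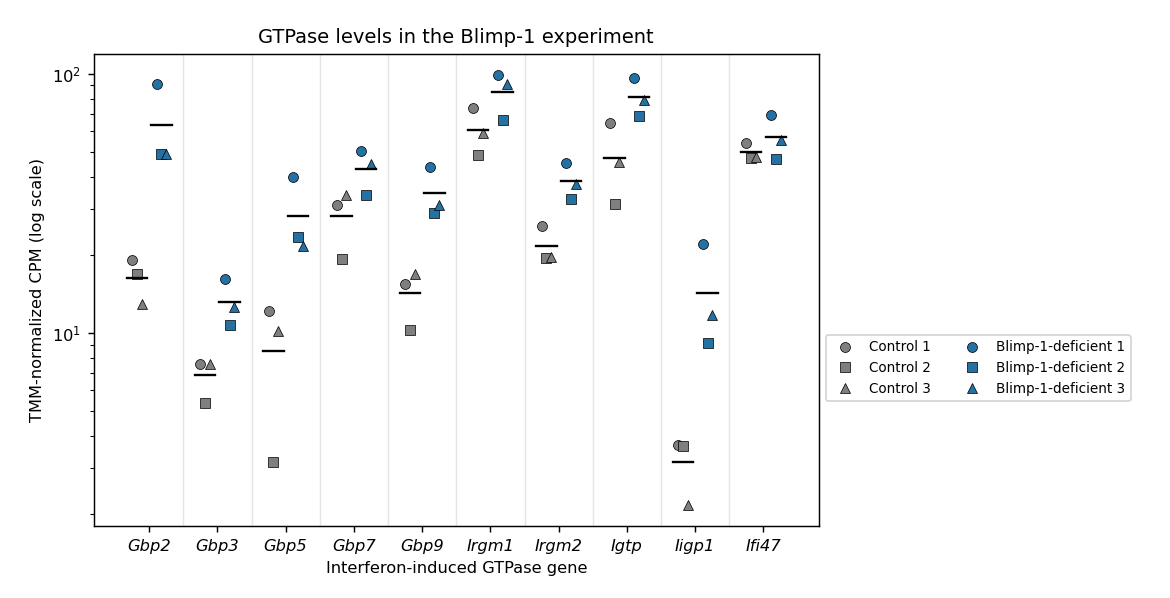
TMM-normalized CPM (log scale) of the 10 GTPase genes in the 3 Control (grey) and 3 Blimp-1-deficient (blue) libraries, with a marker shape for each replicate number and a bar at the group mean. The groups are separate for 7 genes and overlap for Gbp7, Irgm1 and Ifi47, and Blimp-1-deficient 1 (blue circle) is the highest library for all 10.

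**Figure D4:**
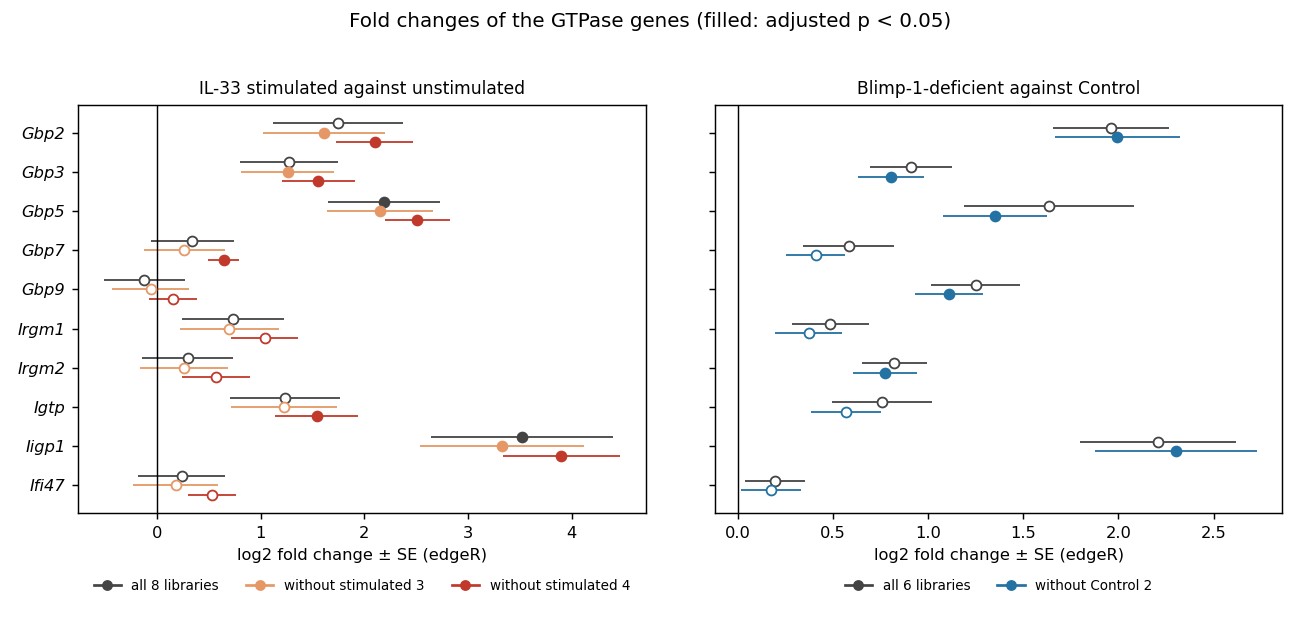
Log2 fold changes with SE from edgeR for the 10 GTPase genes after IL-33 (left) and in Blimp-1 deficiency (right), with all libraries and without the libraries named in the legends, filled where the adjusted p was under 0.05. Leaving out IL-33 stimulated 4, the lowest stimulated library for all 10 genes, moved all 10 estimates of the left panel upwards and filled 6. Leaving out Control 2 filled 6 in the right panel, Iigp1 at 2.30 the largest.

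The pathway genes had a like split between the fits. With all 6 libraries, Usp18 rose (log2 fold change 2.95, SE 0.23, edgeR adjusted p = 0.0116) and Irf9 rose (0.88, SE 0.12, 0.0398), and edgeR called no other gene of the interferon lists. With library size alone Usp18 was called and Irf9 was not. With the replicate number as a block, or without Blimp-1-deficient 1 or 3, edgeR called 0 of all genes higher, so neither was called there. DESeq2 called 5 of 11 receptor and JAK-STAT genes, 4 of 11 transcription factors and 7 of 19 other GTPases higher, and 2 feedback inhibitors higher and 1 lower. In that fit 3.22% of all genes were called higher, and 550 of 17248 were called lower. Usp18, a protease that dampens type I interferon signalling, stood at 1.78, 2.92 and 2.11 CPM in Control and at 17.6, 13.6 and 18.3 CPM in Blimp-1-deficient libraries. Irf9, the DNA-binding part of the complex that recognizes the ISRE, stood at 22.4, 22.9 and 25.2 CPM and at 46.4, 37.7 and 45.5 CPM. Both genes were separate between the groups with Control 2 included.

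Without Control 2, 7 of 10 receptor and JAK-STAT genes were called higher and 0 lower, where 8.25% of all genes were called higher and 5.72% lower. The same shares apply to the transcription factors, feedback inhibitors and other GTPases in that fit. Among them were Stat2 (1.10, SE 0.19, edgeR adjusted p = 0.0126) and Ifngr1 (0.62, SE 0.10, 0.00950). Ifngr1 stood at 117, 68.0 and 128 CPM in Control and at 163, 193 and 207 CPM in Blimp-1-deficient libraries, without overlap. The ligand Ifng was low throughout, at 0.374, 0 and 0.137 CPM in Control and at 1.12, 1.19 and 0.755 CPM in Blimp-1-deficient libraries. Without Control 2, whose 0 counts allow up to 0.731 CPM, Ifng was called higher (log2 fold change 2.01, SE 0.46, edgeR adjusted p = 0.0310). Of 11 transcription factors, 5 were called higher without Control 2, among them Irf7 (log2 fold change 1.90, SE 0.28, edgeR adjusted p = 0.00730) and Irf9. Batf2, with 5 and 3 counts in Controls 1 and 3 and 32, 19 and 18 in Blimp-1-deficient libraries, was called as well. Of 10 feedback inhibitors, 4 were called higher, led by Usp18 and Isg15, and 2 lower, led by Socs3 (-0.84, SE 0.13, edgeR adjusted p = 0.00839).

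Of 18 other interferon-inducible GTPases tested without Control 2, 10 were called higher and 0 lower. Several of them had few counts. Mx2 had 58, 13 and 81 counts without Blimp-1, against 3 and 1 in Controls 1 and 3, and Gbp2b had 10, 16 and 6 against 1 and 0, so no fold is given. Gbp11 had 111, 38 and 50 counts against 5 and 16, with a log2 fold change of 2.75 (SE 0.66, edgeR adjusted p = 0.0365). Gbp6 and Gbp8, neighbours of Gbp9 on chromosome 5, had log2 fold changes of 1.42 (SE 0.27, edgeR adjusted p = 0.0171) and 1.15 (SE 0.21, 0.0151). As for other cell types, 4 of 12 myeloid markers and 3 of 10 endothelial, epithelial and stromal markers tested were called higher without Control 2, where 8.25% of all genes were. Summed myeloid markers were at 34.8 to 131 CPM in Control and at 35.6 to 120.4 CPM in Blimp-1-deficient libraries, and summed ILC1 and NK cell markers at 95.7 to 169.6 CPM and at 59.0 to 115 CPM. Of 10 ILC1 and NK cell markers tested with all 6 libraries, edgeR called Eomes lower (log2 fold change -2.65, SE 0.36, adjusted p = 0.0398), where 0.306% of all genes were. Eomes was lower also without Control 2 (-2.67, SE 0.31, edgeR adjusted p = 0.00327). Summed mast cell and basophil markers were at 137 to 150.5 CPM in Control and at 163 to 211 CPM in Blimp-1-deficient libraries, without overlap, although 0 of 2 tested were called. In each of these libraries 1 to 4 of the 7 genes had no count, and in the stimulation experiment Kit alone made up most of this sum. Summed endothelial, epithelial and stromal markers were at 221 and 321 CPM in Controls 1 and 3, at 3588 CPM in Control 2 and at 487 to 684 CPM in Blimp-1-deficient libraries. No myeloid, ILC1 or NK marker was at 0 in all libraries, and the part of these cell types in the GTPase levels was not tested.

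**Figure D5:**
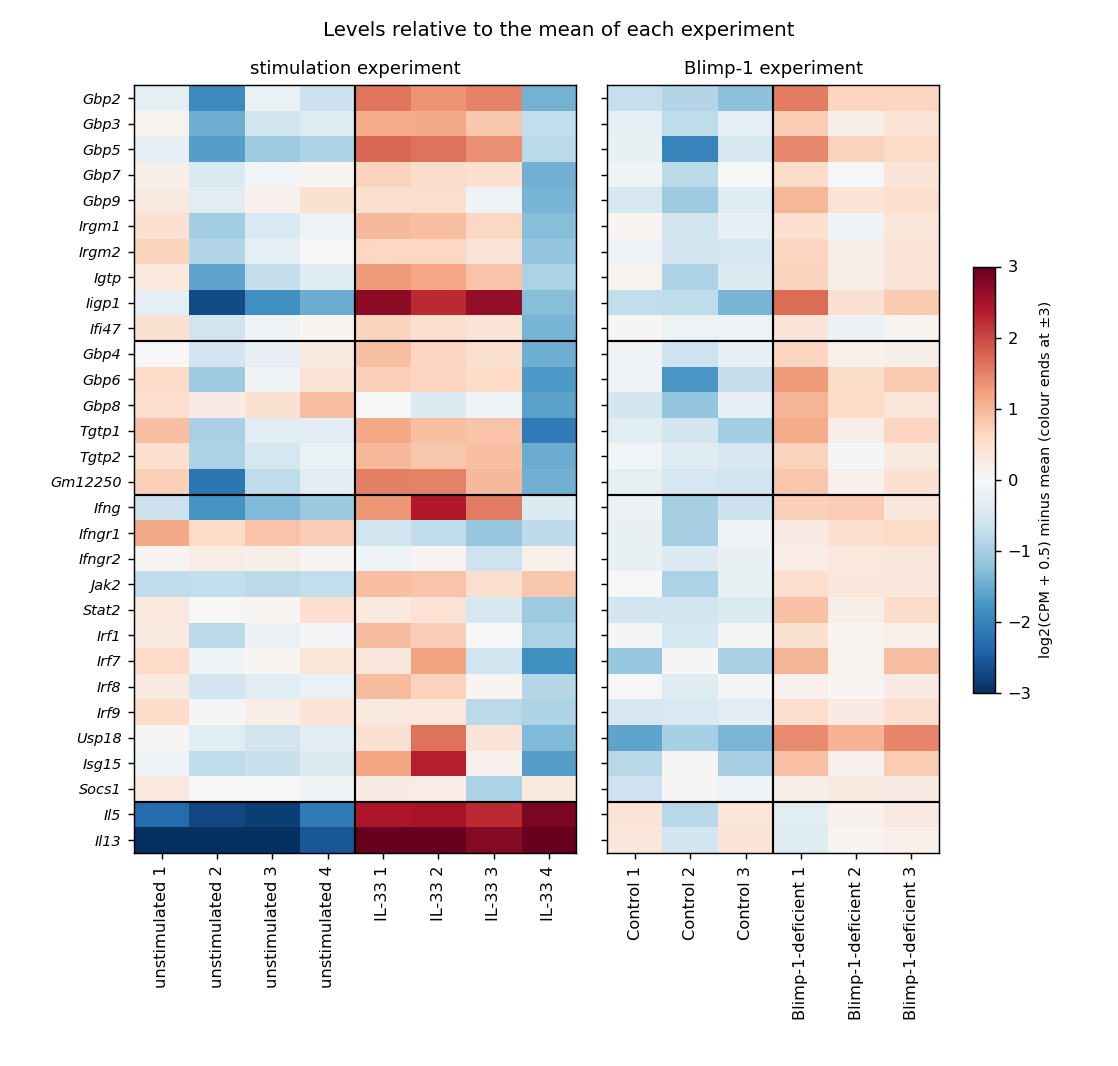
Log2(CPM + 0.5) of the 10 GTPase genes, 6 related GTPases, the interferon ligand and pathway genes, and Il5 and Il13, minus the mean of each gene in its experiment, for all 14 libraries. IL-33 stimulated 4 is low for the GTPase genes, Ifng relative to stimulated libraries 1 to 3, and Irf1, and as high as the other stimulated libraries for Il5 and Il13, and the Blimp-1-deficient libraries are higher for Usp18.

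The genes whose pattern was most like that of the members were found by the root mean square difference between a gene's log2 CPM and the members' mean, each centred in its experiment, over 14 libraries and 9851 genes with at least 5 CPM on average in both experiments. The smallest differences among other genes were those of Tgtp2 (0.25), Serpina3g (0.35), Gm12250 (0.35), Gbp4 (0.36), Irf1 (0.38) and Cd274 (0.43), the last of which encodes PD-L1. Tgtp2 stood at 50.3, 18.2, 24.3 and 30.9 CPM in unstimulated, at 70.3, 62.1, 66.6 and 12.2 CPM in stimulated, at 7.97, 6.33 and 5.97 CPM in Control and at 13.9, 8.18 and 10.5 CPM in Blimp-1-deficient libraries. IL-33 stimulated 4 was again the lowest of its group. Among the members themselves Gbp3 (0.16) and Igtp (0.18) were closest to the mean and Iigp1 (0.99) was farthest, with a wider range than the others. All values share the same libraries and their depth, so the likeness is a description.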

How the data were processed

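Bulk RNA-seq of mouse lung ILC2s gave 14 libraries, from individual mice per the design text. The authors deposited raw read counts per gene and TPM for each experiment. Per the study's methods, reads were trimmed with cutadapt, aligned to GRCm38 with HISAT2 and counted with Subread, while the submitters' processing notes name Bowtie2, Subread, DESeq2 and mm10. Libraries were made with SMART-seq v4 and Nextera XT.

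Counts were filtered, TMM-normalized and tested with edgeR 4.0.16 (quasi-likelihood, Benjamini-Hochberg adjusted p under 0.05, R 4.3.3), separately per experiment and over all genes, and CPM are TMM-normalized. Alternatives used DESeq2 1.42.0, limma 3.58.1 on log2(TPM + 1) and log2(TPM + 0.1), other normalizations and filters, a replicate block, and libraries left out. Scripts were tested on simulated data. The members and lists were chosen with earlier results of these data known. Besides the members and Prdm1, named genes were at most 3 called genes per list and direction with the largest fold change, single pathway genes with values, and the 6 genes most like the members. Genes singled out for IL-33 stimulated 4, for the check of sex, and Gbp6 and Gbp8 were chosen after their values were seen. A count of 0 was read as up to 3 counts. Counts hold no molecular identifiers, so this covers counting error only. A gene of the pathway lists is left out of the text and enters only the counts over its list.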

Additional observations from a re-analysis of the deposited data

Results flagged for a closer look

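IL-33 stimulated 4 stood below the other 3 stimulated libraries for most members. On the log2 CPM scale, its gap to the nearest library as a share of the range of the 4 was 0.917 for Gbp2, 0.862 for Gbp5, 0.913 for Gbp7, 0.849 for Irgm1, 0.868 for Irgm2, 0.886 for Iigp1 and 0.873 for Ifi47. Each is past Dixon's 95% critical value for 4 samples, which chance passes in about 1 in 20 groups. Of all 14756 genes, 0.319% were past it with this library lowest. Gbp3, Igtp and Gbp9 did not pass, and on the CPM scale Gbp7 alone did (0.844). The log scale was chosen after the values were seen.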

How the results depend on the processing

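Shares in parentheses are those of all genes called higher in the same fit. Of the 10 members, 2 were called higher after IL-33 with all libraries (16.2%), and 5 with DESeq2 (19.4%). With limma on log2(TPM + 1) or log2(TPM + 0.1) 0 were called (6.53% and 6.43%), a scale on which the median of all genes was -0.25 and -0.29, with 2 members at an unadjusted p under 0.05 (46.1% and 45.3% of all genes). Leaving out 1 library gave 0 (without unstimulated 3, 11.8%) to 6 (without IL-33 stimulated 4, 12.4%) called members. Alternatives added after seeing the data gave, without IL-33 stimulated 4, 7 with DESeq2 (17.4%), 6 with library size alone (9.44%) and 4 with limma (4.87%), and 4 without both libraries numbered 4 (8.74%). Without IL-33 stimulated 3 they gave 2 with DESeq2 (23.1%), 2 with library size alone (19.6%) and 0 with limma (15.2%).

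In Blimp-1 deficiency 0 members were called (0.450%), against 6 with DESeq2 (3.22%) and 1 each with library size alone (0.565%, with the median of all genes at 0.45), no filter on low counts (0.185%), or a mean count of at least 50 (1.11%). Leaving out 1 library gave 0 to 6 (without Control 2, 8.25%). Added alternatives without Control 2 gave 7 with DESeq2 (10.6%), 6 with RLE size factors (8.08%), 6 with library size alone (9.45%) and 1 with limma (5.07%). Leaving out a further library gave 2 (Control 1, 3.20%), 1 (Control 3, 4.39%), 6, 8 and 4 (Blimp-1-deficient 1, 2 and 3, 6.32%, 5.63% and 5.76%). The cause of these differences was not tested.

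With the replicate number as a block, 0 members were called in either comparison (9.79% and 0% of all genes), and Gbp5 and Iigp1 had edgeR adjusted p of 0.0505 and 0.0550 after IL-33, with 2 (IL-33, 34.5% of all genes) and 9 (Blimp-1, 7.60%) at an unadjusted p under 0.05. The design text describes separate mice, though both libraries numbered 4 lacked Xist. Deviations of same-numbered libraries correlated at -0.12 to 0.31 in the stimulation experiment, over 0.1 in 3 of 4 pairs, and at -0.16 to 0.14 in the Blimp-1 experiment. Those of differently numbered libraries correlated at -0.32 to 0.27 and at -0.22 to 0.19. These ranges overlap and cannot decide whether the numbers pair the samples. The main tests did not pair them.

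In Blimp-1 deficiency all members stayed above 0 in every fit, though Ifi47 came down to 0.046 without Blimp-1-deficient 1. With all 6 libraries, some fits moved genes upwards as a whole. Half-way through the ranked genes, limma stood at 1.28 on log2(TPM + 1) and at 1.69 on log2(TPM + 0.1). Library size alone stood at 0.45 there. A value above 0 in these shifted fits therefore cannot decide a member's direction. After IL-33, Gbp7, Irgm2 and Ifi47 turned negative with limma: -0.17, -0.080 and -0.23 on log2(TPM + 1), -0.18, -0.085 and -0.24 on log2(TPM + 0.1), and -0.28, -0.14 and -0.33 without IL-33 stimulated 3. Gbp9 ranged from -0.34 to 0.15 with 1 library left out, and turned positive at 0.03 without unstimulated 4, 0.15 without IL-33 stimulated 4 (0.16 with DESeq2, 0.0064 with library size alone) and 0.26 without both libraries numbered 4. Depth limits Control 2, where 3 counts were 0.731 CPM.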

Other observations

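Of 14 genes whose proteins take part in loading GTPases onto vacuoles (ATG8 conjugation and ubiquitin ligases), edgeR called 6 after IL-33. It called 1 higher, Gabarapl1 (log2 fold change 1.67, SE 0.42, adjusted p = 0.0166), an ATG8 protein, at 1.06 (SE 0.12) without IL-33 stimulated 3. The other 5 were lower, where 16.1% of all genes were, the largest change being Atg7, which fell by 0.57 on the log2 scale (SE 0.06, adjusted p = 0.00023). In Blimp-1 deficiency edgeR called 0 of 14 with all libraries, with 2 at an unadjusted p under 0.05 (11.9% of all genes), and DESeq2 called Gabarapl1 higher (0.89, SE 0.17, adjusted p = 8.8e-06). Without Control 2 Gabarapl1 rose by 0.97 (SE 0.12, adjusted p = 0.0040), with Rnf213 and Trim21 also higher and Atg3 lower.

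Of 7 inflammasome and pyroptosis genes tested after IL-33, 2 rose and 0 fell, where 16.2% of all genes rose. Nlrp3, the sensor with which Gbp5 is linked, rose by a log2 fold change of 4.40 (SE 0.31, edgeR adjusted p = 4.4e-05), and Aim2 by 0.42. In Blimp-1 deficiency edgeR called 0 of 8 with all libraries, with 3 at an unadjusted p under 0.05 (11.9% of all genes), and DESeq2 called Pycard lower (-0.52, SE 0.17, adjusted p = 0.0454). Without Control 2, Nlrp3 fell by 0.81 (SE 0.13, edgeR adjusted p = 0.0105) and Pycard by 0.60, while Aim2 rose by 0.27.

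Of the 47 genes for which IL-33 stimulated 4 stood below the other stimulated libraries by Dixon's criterion, 7 were members and 5 were other interferon-inducible GTPases. Of the other 35, 0 belonged to another of the gene lists. Among them Xist stood at 0.071 CPM against a mean of 522, Exoc1 at 46.0 against 51.7 and Ccl5 at 2.34 against 7.76. Ifi203 stood at 15.9 against 53.2 and Kdm6a at 58.0 against 112 CPM. These genes were chosen after their values were seen.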
